A study of Homo sapiens with 6 samples.

Results

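The miR-320 family and miR-484 are mature miRNAs whose precursors include capped hairpins that are made without DROSHA. The 6 miRNAs were taken by name: hsa-miR-320a-3p, hsa-miR-320b, hsa-miR-320c, hsa-miR-320d, hsa-miR-320e and hsa-miR-484. Of the 1000 mature miRNAs in the deposited count table, 5 were members. The table lists no row for hsa-miR-320e, which was not analysed here. Mature miRNAs were sequenced from HEK 293T cells, an immortalized human embryonic kidney line grown without further treatment, with 3 libraries from ΔTUT4/7 cells and 3 from wild type (WT) cells. In the ΔTUT4/7 strain both TUT4 and TUT7, also named TENT3A and TENT3B in the labels, are knocked out, while the WT cells carry neither deletion. All 3 ΔTUT4/7 libraries came from the same knockout strain. According to the paper, the HEK cells came from a culture collection, and the knockout cells were made earlier and received as a gift. The paper does not state whether the WT cells are the stock from which the knockout was made. Every fold change therefore compares the strains as a whole, and whether they differ in more than the deletions was not tested. The labels call the libraries of a group biological replicates and do not say how the cultures were separated, so the p-values measure the spread between these libraries. The mRNAs of TUT4 and TUT7 are not part of a mature miRNA table, so that the knockout itself was not checked here.

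Most miRNA precursors are cut from a longer transcript by DROSHA, exported from the nucleus and cut again by DICER. The precursors of miR-320 and miR-484 can instead arise directly from transcription, as short hairpins that carry a 5′ cap, leave the nucleus by another export route and meet only DICER. Mirtrons are another group that does without DROSHA, since splicing of a short intron makes their hairpin. TUT4 and TUT7 add uridines to the 3′ ends of RNAs, including miRNA precursors. The comparison asked how the abundance of mature miRNAs differed between the strain that lacks both enzymes and the WT cells.

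The mature sequences matter here because the authors trimmed the reads to 18 nt before alignment. The members found in the RefSeq table (GRCh38.p14) are given 5′ to 3′, with the seed (bases 2 to 8) in capitals.
miR-320b: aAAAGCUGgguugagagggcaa
miR-320c: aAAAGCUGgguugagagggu
miR-320d: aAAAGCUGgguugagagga
miR-320e: aAAGCUGGguugagaagg
miR-484: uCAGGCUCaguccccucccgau
The first 18 nt of miR-320a-3p, miR-320b, miR-320c and miR-320d were identical in the genome sequence of the files' build, hg38, and no other miRNA of the table began with them. miR-320b, miR-320c and miR-320d differ only in the bases after position 18, where miR-320b has gcaa, miR-320c has gu and miR-320d has a. A trimmed read that starts at the first base therefore cannot tell these members apart, and the sum of the 4 members is the quantity that such reads measure. Reads that start at a later base were not examined. miR-320e starts 1 base later and, counted from its own 5′ end with the miR-320b base first, carries G16A. The first 18 nt of miR-484 belong to no other miRNA of the table, so its reads could be assigned.

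In RefSeq, miR-320b is made from MIR320B1 (mature bases chr1:116671787-116671808, plus strand, in no other gene) and MIR320B2 (chr1:224257049-224257070, minus strand, in an intron of NVL). miR-320c is made from MIR320C1 (chr18:21683559-21683578, plus strand) and MIR320C2 (chr18:24321716-24321735, plus strand), which lie in introns of ABHD3 and OSBPL1A on the opposite strand. miR-320d is made from MIR320D1 (chr13:40727828-40727846, minus strand) and MIR320D2 (chrX:140926172-140926190, minus strand), both outside other genes in GENCODE. In all 6 of these hairpins the mature miRNA is the 3p arm. MIR484 (chr16:15643301-15643322, plus strand) gives its mature miRNA from the 5p arm, beginning at base 8 of a hairpin of 79 bases. This hairpin overlaps an exon of an untranslated region of NDE1, on the same strand, and starts 27 bases after an annotated NDE1 start site. For the 6 miR-320b, miR-320c and miR-320d hairpins, no start site of another gene was found nearby on the same strand. The MIR320A locus was not examined.

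The 6 libraries held between 4338558 and 7967606 estimated counts, and levels are given as CPM, counts scaled to a library total of 1000000. A floor of 3 counts corresponds to 0.377 to 0.691 CPM, depending on the library, and covers counting error only. Fold changes are ΔTUT4/7 over WT from the quasi-likelihood test of edgeR, with p-values adjusted by Benjamini-Hochberg over 826 tested miRNAs. A miRNA was called at a change of at least 2-fold and an adjusted p under 0.05. All 5 members with a row passed the filter on low counts. Of these, 3 were called higher in ΔTUT4/7 cells (miR-484, miR-320a-3p and miR-320d) and 0 lower, where 16.5% of all tested miRNAs were called higher and 13.6% lower. The same 3 members had every ΔTUT4/7 library above every WT library, a pattern found in 28.8% of the tested miRNAs. The median log2 fold change was 1.04 over the 5 members, which is the value of miR-484 itself, and 0.01 over all tested miRNAs. Of the 5 rows, 4 share their first 18 nt and are not separate measurements. However, miR-320a-3p and miR-320d held few of the shared miR-320 counts, and the summed family was not called.

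**Figure D1:**
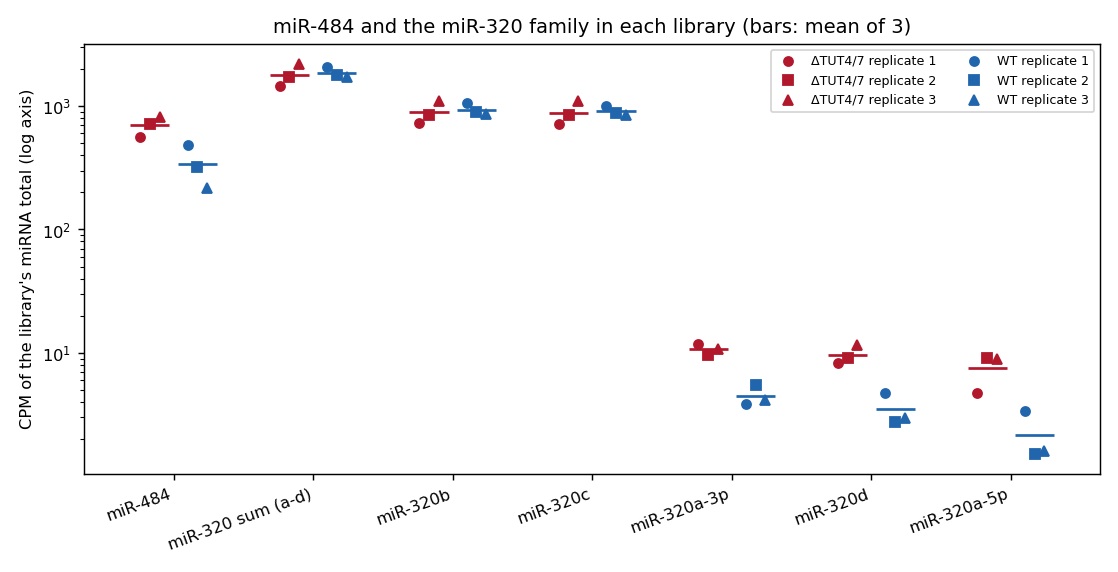
Level of miR-484, the miR-320 sum, its 4 members and the other arm of miR-320a in each library, in CPM on a log axis. Red points are ΔTUT4/7 libraries, blue points WT libraries, and bars the mean of 3; miR-484 is separated between the groups, miR-320b, miR-320c and the sum overlap, and miR-320a-3p and miR-320d lie near 10 CPM or below.

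miR-484 was about 2-fold more abundant in ΔTUT4/7 cells. Its level was 562.9, 718.6 and 818.8 CPM in ΔTUT4/7 replicates 1, 2 and 3 and 485.0, 321.7 and 215.5 CPM in WT replicates 1, 2 and 3. The lowest ΔTUT4/7 library thus lay above the highest WT library, and WT replicate 1 lay nearest to the ΔTUT4/7 libraries. The mean was 700.1 ± 129 CPM against 340.7 ± 136 CPM (SD, n = 3 each). The log2 fold change was 1.04 (SE 0.26, 95% interval 0.48 to 1.60), with an adjusted p of 0.00581 from edgeR's quasi-likelihood test, and miR-484 was called. As a linear fold change this is 2.05, with an interval from 1.40 to 3.02. miR-484 stood at rank 93 of 1000 by mean level in ΔTUT4/7 cells and at rank 129 in WT cells.

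The increase of miR-484 lay close to the 2-fold limit of a call. Without ΔTUT4/7 replicate 3 the log2 fold change was 0.91, without WT replicate 2 it was 1.00 (just under the limit), and without WT replicate 3 it was 0.80, so that the call was lost in each case while the adjusted p (edgeR) stayed at or under 0.0300. Its replicates spread more than those of most miRNAs. Among the 190 miRNAs with a mean of at least 100 CPM, the median coefficient of variation was 5.98% in ΔTUT4/7 cells and 14.0% in WT cells, while that of miR-484 was 18.4% and 39.8%. Of these 190 miRNAs, 24 varied more than miR-484 among ΔTUT4/7 libraries and 13 among WT libraries.

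Levels also moved with base composition. The mature sequence of miR-484 has 63.6% GC, against 50.0% for miR-320b and miR-320c and 47.4% for miR-320d. The 187 tested miRNAs with at least 60% GC had a median log2 fold change of 0.43, with 40 called higher and 16 lower. In contrast, the 150 tested miRNAs under 40% GC had a median of -0.15, with 21 called higher and 28 lower. Weighted by counts, mean GC was 43.9% ± 0.273 in ΔTUT4/7 libraries and 44.8% ± 0.358 in WT libraries (SD, n = 3 each). That difference has the opposite direction. With the GC trend of each library removed, the log2 fold change of miR-484 was 0.89 (SE 0.24, adjusted p = 0.0111, edgeR), short of the 2-fold limit.

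The miR-320 sum, in contrast, was not called different between the strains. It amounted to 1463, 1703 and 2209 CPM in ΔTUT4/7 replicates 1, 2 and 3 and to 2054, 1775 and 1718 CPM in WT replicates 1, 2 and 3. The groups overlapped, with both the lowest and the highest library among the ΔTUT4/7 cells. The mean was 1792 ± 381 CPM in ΔTUT4/7 cells and 1849 ± 180.0 CPM in WT cells (SD, n = 3 each). The log2 fold change was -0.05 (SE 0.16, adjusted p = 0.842, edgeR), and its 95% interval, -0.40 to 0.31, corresponds to 0.756-fold to 1.24-fold. An average change of 2-fold in either direction lies outside this interval, whereas changes within its bounds cannot be told from no change. The sign of the estimate depended on the scaling, since the log2 fold change was 0.18 when let-7 and miR-98 were taken out of the library totals.

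miR-320b and miR-320c held nearly all of the family's counts, in nearly equal parts. miR-320b was listed at 726, 845 and 1096 CPM in ΔTUT4/7 replicates 1, 2 and 3 and at 1050, 893 and 862 CPM in WT replicates 1, 2 and 3. miR-320c was listed at 717, 839.6 and 1091 CPM in the ΔTUT4/7 libraries and at 995, 874 and 849 CPM in the WT libraries, in the same order. Both followed the same course over the libraries, and for both the groups overlapped. The log2 fold change was -0.07 (SE 0.17, adjusted p = 0.753) for miR-320b and -0.04 (SE 0.17, adjusted p = 0.866) for miR-320c (edgeR). The ratio of miR-320b to miR-320c counts lay between 1.005 and 1.013 in ΔTUT4/7 cells and between 1.015 and 1.055 in WT cells. Since these rows share every trimmed read that starts at the first base, the near-equal values depend on how the counts were divided. They cannot be read as the levels of the mature miRNAs.

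miR-320a-3p and miR-320d were listed at under 12 CPM in every library, far below their relatives, and both rows were called higher in ΔTUT4/7 cells. miR-320a-3p had 11.8, 9.56 and 10.7 CPM in ΔTUT4/7 replicates 1, 2 and 3 and 3.85, 5.52 and 4.15 CPM in WT replicates 1, 2 and 3. These levels rest on 156 counts for ΔTUT4/7 and 79 for WT. The log2 fold change was 1.21 (SE 0.26, adjusted p = 0.00266, edgeR). miR-320d had 8.28, 9.15 and 11.5 CPM in the ΔTUT4/7 libraries and 4.76, 2.76 and 3.00 CPM in the WT libraries. Its rows held 140 and 56 counts, and the log2 fold change was 1.48 (SE 0.30, adjusted p = 0.00183, edgeR). In both cases every ΔTUT4/7 library stood above every WT library.

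Because the first 18 nt are shared, the counts of both rows were also taken as a share of the family. miR-320a-3p and miR-320d together took 1.37%, 1.10% and 1.00% of the family's counts in ΔTUT4/7 replicates 1, 2 and 3. In WT replicates 1, 2 and 3 they took 0.419%, 0.467% and 0.416%. Wilson 95% intervals treated each assigned count as a separate read. They cover counting error at most, and not how the shared reads were divided. On that basis they ran from 0.829% to 1.66% over the ΔTUT4/7 libraries and from 0.293% to 0.593% over the WT libraries. The mean share was 1.16% ± 0.192 against 0.434% ± 0.0285 (SD, n = 3 each), a ratio of 2.67. An exact two-sided permutation test of the difference of 0.725 percentage points gave p = 0.1, the smallest that 3 libraries against 3 allow. How the authors' quantification assigned these few counts to miR-320a-3p and miR-320d was not tested, and with the 4 rows summed neither call remained.

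**Figure D2:**
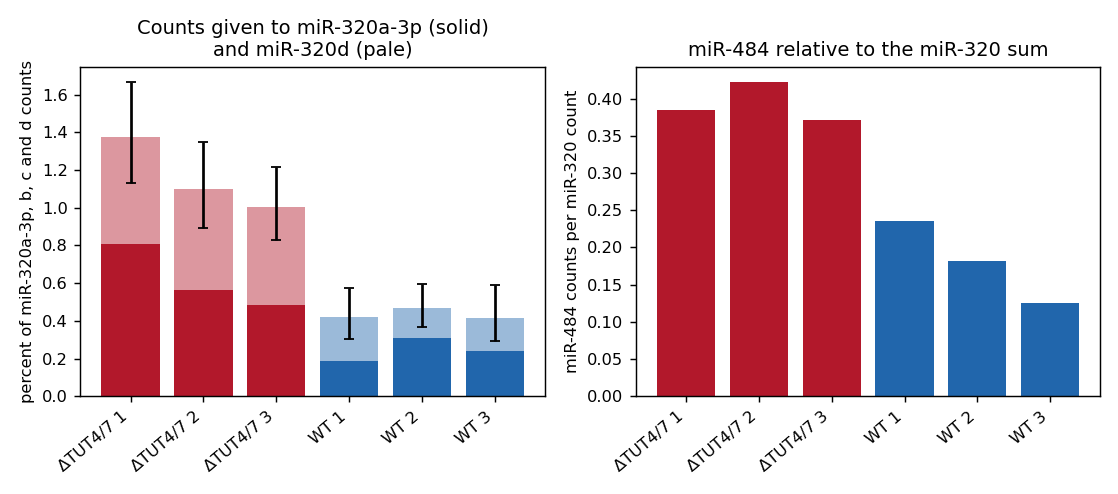
Left, share of miR-320a-3p (solid) and miR-320d (pale) in the counts of miR-320a-3p, b, c and d in each library, in percent, with Wilson 95% intervals of the joint share. The intervals do not cover how the shared reads were divided. Right, miR-484 counts per miR-320 count in each library; the joint share is 1.00% to 1.37% in ΔTUT4/7 libraries (red) and 0.416% to 0.467% in WT libraries (blue), and the ratio is 0.371 to 0.422 against 0.125 to 0.236.

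The other arm of the miR-320a hairpin, miR-320a-5p, was higher in ΔTUT4/7 cells. Its first 18 nt occur in no other row of the table, so that its counts do not depend on the division within the family. It had 4.73, 9.15 and 8.96 CPM in ΔTUT4/7 replicates 1, 2 and 3 and 3.40, 1.51 and 1.61 CPM in WT replicates 1, 2 and 3. ΔTUT4/7 replicate 1 and WT replicate 1 lay closest to each other, and the groups did not overlap. The mean was 7.61 ± 2.50 CPM against 2.17 ± 1.06 CPM (SD, n = 3 each), from 110 and 34 counts. The log2 fold change was 1.85 (SE 0.40, 95% interval 0.99 to 2.71, adjusted p = 0.00257, edgeR), and it was called. The summed 3p arms, which come from several hairpins, were far more abundant, and the level of the 3p arm of miR-320a itself cannot be read from the trimmed counts.

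miR-484 and the miR-320 sum were also compared within each library, where the library total has no influence. There were 0.385, 0.422 and 0.371 miR-484 counts per miR-320 count in ΔTUT4/7 replicates 1, 2 and 3. In WT replicates 1, 2 and 3 there were 0.236, 0.181 and 0.125. All ΔTUT4/7 ratios were above all WT ratios. Relative to their mean, the ΔTUT4/7 ratios lay closer together than the levels of miR-484 or of the sum. The WT ratios spread less than the WT levels of miR-484 but more than those of the sum. The mean ratio was 0.392 ± 0.0265 against 0.181 ± 0.0553 (SD, n = 3 each). On the log2 scale the ratio differed by 1.16, which is 2.24-fold, with p = 0.1 in an exact two-sided permutation test, the smallest that this design allows. miR-484 and the miR-320 family thus stood in a different proportion in every ΔTUT4/7 library than in any WT library. By which route the precursors behind these counts were made was not tested.

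By level, the miR-320 sum stood above miR-484 in every library of both strains. The ΔTUT4/7 libraries held 1463 to 2209 CPM of the sum and 562.9 to 818.8 CPM of miR-484, and the WT libraries 1718 to 2054 CPM and 215.5 to 485.0 CPM. The separate miR-320 rows were not ranked, since their reads are shared.

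Among other miRNAs with a member's seed, none was called with all 6 libraries. miR-4429 has the miR-320 seed AAAGCUG and differs from the miR-320b start by U11C (position from the 5′ end, miR-320b base first). Trimmed reads differ at this base only, and whether misread miR-320 reads were counted for miR-4429 was not tested. The miR-4429 row had 2.17, 3.12 and 6.40 CPM in ΔTUT4/7 replicates 1, 2 and 3 and 3.63, 2.51 and 3.92 CPM in WT replicates 1, 2 and 3. The groups overlapped, and the log2 fold change was 0.24 (SE 0.41, adjusted p = 0.662, edgeR). miR-3155a, which lies in an intron of PFKFB3, shares the seed CAGGCUC with miR-484. It had 2.56, 0.832 and 2.99 CPM in the ΔTUT4/7 libraries and 0.680, 1.13 and 0 CPM in the WT libraries, again with overlap. From only 31 and 12 counts its log2 fold change was 1.60 (SE 0.71, adjusted p = 0.0866, edgeR). It passed both limits of a call without ΔTUT4/7 replicate 2 (1.98, adjusted p = 0.0414, edgeR), and its log2 fold change was 2.54 without WT replicate 2, where it was not called.

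**Figure D3:**
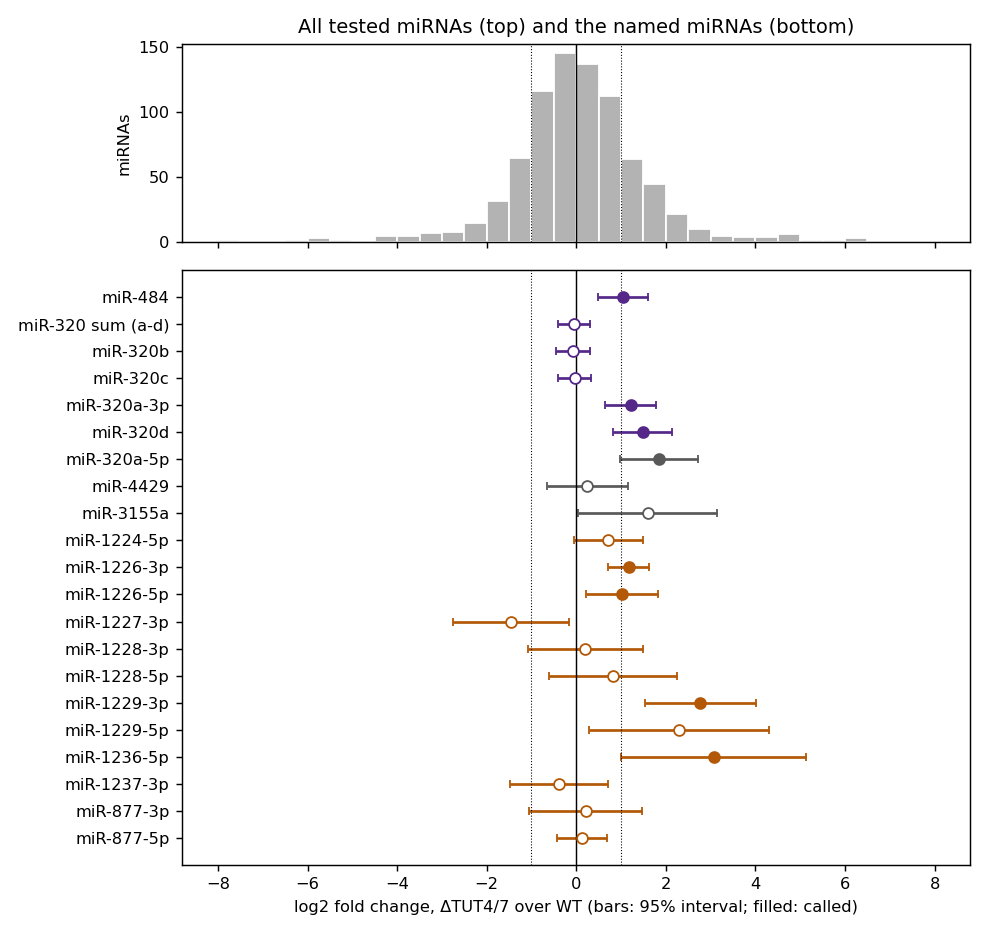
Top, number of tested miRNAs per bin of 0.5 log2 units of fold change (ΔTUT4/7 over WT). Bottom, log2 fold changes with 95% intervals of the members and their sum (purple), miR-320a-5p and the seed mates (grey) and the mirtron arms (orange), filled where called; miR-484 lies at 1.04, the sum at -0.05 and miR-1226-3p at 1.17, and dotted lines mark a 2-fold change.

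A list of mirtrons, taken by name, served as the other miRNAs made without DROSHA. Whether each listed miRNA is made in this way was not tested. Of 14 arms of the listed mirtrons with a row in the table, 12 were tested, of which 4 were called higher and 0 lower (16.5% and 13.6% of all tested miRNAs). The arms are not all separate hairpins. Both arms were tested for miR-877, miR-1226, miR-1228 and miR-1229, and both arms of miR-1226 are among the calls. Over the 12 tested arms, log2 fold changes ran from -1.46 to 3.07, with a median of 0.77 and 10 of 12 above 0. Above 0 were also 416 of all 826 tested miRNAs and 121 of the 187 with at least 60% GC. With the GC trend of each library removed, the median of the mirtron arms was 0.50, with 3 called higher and 0 lower. Most arms were rare, and only miR-1226-3p and miR-877-5p averaged more than 100 CPM in ΔTUT4/7 cells.

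miR-1226-3p, the most abundant arm of the list, had 301.5, 408 and 527 CPM in ΔTUT4/7 replicates 1, 2 and 3 and 211, 179 and 159 CPM in WT replicates 1, 2 and 3. The groups did not overlap, and the log2 fold change was 1.17 (SE 0.21, adjusted p = 8.46e-04, edgeR), next to 1.04 for miR-484. miR-877-5p had means of 107.6 ± 20.4 and 98.2 ± 36.7 CPM (SD, n = 3 each), and its log2 fold change was 0.13 (SE 0.26, adjusted p = 0.703, edgeR). The remaining called arms were miR-1226-5p, miR-1229-3p and miR-1236-5p, all under 20 CPM in every library. miR-1229-3p had 4.14, 7.28 and 15.1 CPM in the ΔTUT4/7 libraries and 1.36, 1.88 and 0.230 CPM in the WT libraries, a log2 fold change of 2.77 (SE 0.57, adjusted p = 0.00189, edgeR). It stayed called without any 1 library, at 2.14 without ΔTUT4/7 replicate 3 and 3.42 without WT replicate 2. miR-1226-5p averaged 3.02 ± 0.274 against 1.46 ± 0.265 CPM (log2 fold change 1.02, SE 0.37, adjusted p = 0.0412, edgeR), a call that was lost without any 1 of the 6 libraries. miR-1236-5p rests on 25 counts for ΔTUT4/7 and 3 for WT, a ratio of pooled rates of 9.56 (95% counting interval 2.92 to 49.5). All 3 of the WT counts were in replicate 3, and the call was lost without ΔTUT4/7 replicate 3, WT replicate 1 or WT replicate 2 (adjusted p 0.0543 to 0.0947, edgeR). Without ΔTUT4/7 replicate 3, only 1 arm of the list was called, miR-1229-3p.

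Over the 6 libraries, the miRNAs whose course was most like that of miR-484 were found among 190 miRNAs with a mean of at least 100 CPM. Likeness was the Euclidean distance between log2(CPM + 1) values centred on their mean. The 5 nearest were miR-1180-3p (distance 0.247), miR-92a-3p (0.263), miR-1226-3p (0.573), miR-17-3p (0.582) and miR-92b-3p (0.635). Their log2 fold changes were 1.10, 1.14, 1.17, 1.00 and 0.56, and miR-1180-3p, miR-92a-3p and miR-1226-3p were called. The nearest to the miR-320 sum were miR-615-3p (0.289), miR-106b-3p (0.311), miR-22-3p (0.353), miR-769-3p (0.354) and miR-342-3p (0.364). None of these 5 was called, with log2 fold changes from -0.21 to -0.00. The libraries share their totals, so these distances describe a likeness of levels only.

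**Figure D4:**
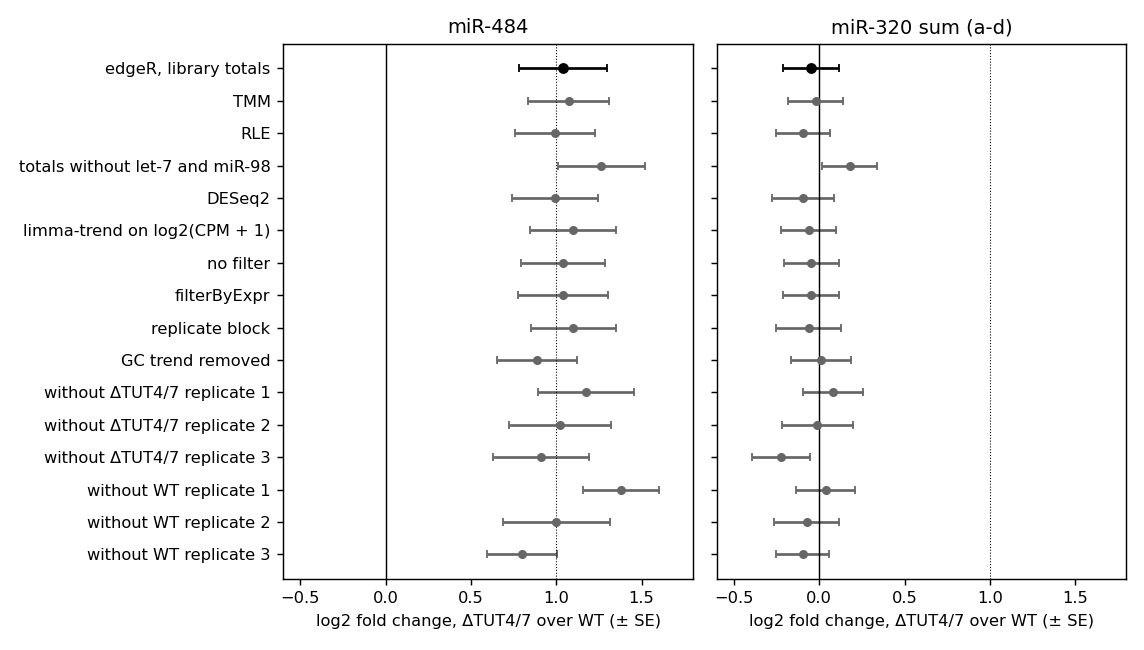
Log2 fold change (ΔTUT4/7 over WT) of miR-484 and of the miR-320 sum, with the standard error, under the reported settings (black) and under each alternative or without each library (grey); the dotted line marks a 2-fold change. miR-484 runs from 0.80 to 1.38 and the sum from -0.22 to 0.18.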

How the data were processed

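Small RNA libraries of 3 ΔTUT4/7 and 3 WT HEK 293T samples were made by the authors with the QIAseq miRNA Library Kit and sequenced on an Illumina NextSeq instrument. Reads were trimmed by the authors to their first 18 nt and placed on hg38 by Bowtie 1.0.0, and mature miRBase miRNAs were quantified in Partek Flow 10.0.22 (versions and build from the submitters' processing notes). The deposited values are estimated counts, in which the authors' expectation-maximization step divides reads that fit several miRNAs; they are whole numbers, and the 3 largest are rounded. Any collapse of reads by molecular identifier was not given in the sources used here. A deposited comparison of the strains, with p-values, ratios and means, holds the authors' own results and was not used.

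Libraries were assigned to strains by their labels. CPM was computed from each library's total of 4338558 to 7967606. Every miRNA with more than 7 counts in some library entered the test of edgeR 4.0.16 in R 4.3.3 (estimateDisp, glmQLFit, glmQLFTest), with normalization factors of 1 and Benjamini-Hochberg adjustment over 826 miRNAs, and the common dispersion was 0.0358. Standard errors are the log2 fold change over the root of F. For the sum, rows with the same first 18 nt were added and the table of 813 rows refitted. Replicate libraries of a group differed beyond counting noise (chi-square per degree of freedom 13.3 to 293.2), so each was counted as 1 library. This does not show that they came from separate cultures. The largest values were those of WT replicate 3 against WT replicates 1 and 2 (293.2 and 283.7). WT replicates 1 and 2 differed at 99.2, and the ΔTUT4/7 pairs at 13.3 to 54.9. Shares and ratios within libraries were compared by exact permutation. Of 1000 miRNAs, 897 matched a RefSeq mature sequence by name, and all 897 had the genome's first 18 nt. Positions in genes are from GENCODE 44.

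The text names the members, miR-320a-5p, the called and the most abundant mirtron arms (of miR-877, miR-1224 to miR-1229, miR-1233, miR-1234 and miR-1236 to miR-1238), miRNAs that share a member's seed, and the 5 nearest in level pattern to miR-484 and to the miR-320 sum. miR-877-5p was named after its values were seen. The members and lists were chosen with earlier results of these data known. Alternatives were TMM and RLE factors, DESeq2 1.42.0, library totals from which let-7 and miR-98 were removed, the trend method of limma 3.58.1 on log2(CPM + 1), filterByExpr, no filter, the replicate block, a GC trend removed by lowess (span 0.5), summed rows, no limit on the adjusted p, and each library left out.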

Additional observations from a re-analysis of the deposited data

How the results depend on the processing

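miR-484 missed the 2-fold limit with RLE factors (log2 fold change 0.99), with DESeq2 (0.99) and with the GC trend removed (0.89). Over the fits without 1 library it ran from 0.80 to 1.38. miR-320a-5p was called in all 17 alternatives, from 1.44 to 2.28. miR-320a-3p and miR-320d were called in all 17 but 1, the summed rows, where the family's value of -0.045 replaced theirs. The small estimates of the other rows changed sign. With totals without let-7 and miR-98 the log2 fold change was 0.15 for miR-320b, 0.18 for miR-320c and 0.18 for the sum, and with the GC trend removed 0.011 for miR-320c and 0.0094 for the sum. Without 1 library, miR-320b ran from -0.25 to 0.054, miR-320c from -0.22 to 0.091, the sum from -0.22 to 0.081, and miR-4429 from -0.30 to 0.54. None of these was called, and the cause of the changes was not tested. The difference in the joint share of miR-320a-3p and miR-320d ran from 0.617 to 0.802 percentage points without 1 library, and that in the log2 ratio of miR-484 to the sum from 0.921 to 1.38.

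Totals without let-7 and miR-98 moved the median over all tested miRNAs from 0.01 to 0.23 on the log2 scale and the calls from 136 higher and 112 lower to 183 higher and 81 lower. With these totals miR-484 was at 1.26. The number of calls, 248, ran from 196 (filterByExpr) to 316 (no limit on the adjusted p). Calls among mirtron arms ran from 1 to 4 without 1 library. miR-1227-3p, an arm named after its values were seen, was called lower with RLE and DESeq2 (beside 3 higher), without WT replicate 1 or 2 (beside 2 higher) and with no limit on the adjusted p (beside 5 higher). Among the called arms, miR-1226-5p lost its call in 11 of 17 alternatives and miR-1236-5p in 3 of 16. miR-1236-5p and miR-3155a were not tested under filterByExpr. Alternatives for miR-320e were not run, since the table lists no row for it.

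The labels number the replicates 1 to 3 in both strains, but same-numbered libraries did not deviate together (correlations -0.17, -0.16 and -0.25 over 391 miRNAs). With the number as a replicate block the log2 fold change was 1.10 for miR-484 and -0.06 for the sum, calls over all miRNAs were 233, and no member's call changed. At this depth miR-320a-3p, miR-320d and miR-320a-5p rest on 34 to 156 counts a group and the other rare rows named on 3 to 127, and 3 libraries a group cannot give an exact permutation p below 0.1.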
